A study of Rattus norvegicus with 6 samples.

Results

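The TRIM (tripartite motif) family was read as every gene of the deposited count table whose symbol is Trim followed by a number, which gave 51 of 22396 genes. Of these, 8 were placed on a list of interferon-inducible members (Trim5, Trim14, Trim21, Trim25, Trim26, Trim30c, Trim34 and Trim69) and 43 were the other members. Transcripts came from the basal temporal lobe of adult male Sprague-Dawley rats, collected 24 h after subarachnoid hemorrhage (SAH, bleeding into the space around the brain), which was modeled by placing blood from the femoral artery into the cisterna magna. The SAH + 6-gingerol group (3 rats) received 6-gingerol, a phenolic compound of ginger, at 10 mg/kg intraperitoneally 1 h post-SAH, and the SAH + PBS group (3 rats) received the saline vehicle. All 6 rats carried the hemorrhage, sham rats are not analysed here, and each library was made from 1 rat. In the deposited tables the columns of 6-gingerol rats bear the name Control. Groups follow the sample titles, which state the treatment. Values of a group are given in the order of its replicates 1 to 3.

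TRIM proteins carry a RING domain, B-box zinc fingers and a coiled coil near the N-terminus, and most are E3 ligases that attach ubiquitin to a partner chosen by the C-terminal domain. A subset is induced by interferon and acts in antiviral defence, for example by activating RIG-I, a cytosolic sensor of viral RNA. Other members work on microtubules, chromatin or muscle fibres, and several are enriched in neurons.

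Total counts ran from 62762808 to 66761380 with 6-gingerol and from 64053899 to 65606360 with PBS. The library of SAH + PBS replicate 2 stood apart. Over 2-fold differences from its group mates were found in 19.8% of its genes, and in 4.11% to 11% of genes in the other 5 libraries. Levels are given as CPM, counts scaled to a common library size. The scaling factors (TMM) were 0.954 to 0.965 with 6-gingerol and 1.01 to 1.08 with PBS. Compared with library totals, this scaling raises the treated rats relative to the PBS rats. The summed neuronal markers were 5711, 5689 and 5936 CPM with 6-gingerol, against 3806, 2227 and 4920 CPM with PBS, lowest in this rat. Its neutrophil markers summed to 31.2 CPM and those of every other rat to at most 2.42 CPM. Astrocyte markers summed to 2695, 2415 and 2156 CPM with 6-gingerol, against 3924, 6504 and 4321 CPM with PBS. Without Gfap and Vim, the other 4 astrocyte markers summed to 2003, 1833 and 1713 CPM with 6-gingerol, against 1561, 1414 and 1930 CPM with PBS, so that sum overlapped. The labelled brain tissue was borne out by neuronal, astrocyte, microglial and oligodendrocyte markers, all of them detected. The choroid plexus marker sum was uneven, at 5.69, 2.27 and 2.54 CPM with 6-gingerol, against 1121, 2.74 and 324 CPM with PBS. Because SAH + PBS replicate 2 stood apart, values without it are given beside those of all 6 rats for the members described by rat. Leaving it out keeps SAH + PBS replicates 1 and 3, whose choroid plexus sums (1121 and 324 CPM) were far above those of the treated rats. In that edgeR fit, 3 of 4 tested choroid plexus markers passed an adjusted p of 0.05 (0.524% of genes did). Values without that rat carry this imbalance and are not a cleaner comparison.

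The promoters of the interferon-inducible members come first, because the core of the interferon-stimulated response element (ISRE), the DNA motif bound by interferon-activated transcription factors, can be looked up in them directly. The windows are those of RefSeq on the rat build GRCr8, covering 250 bases before to 50 bases after the annotated start, which is position 251 of the 300. The motif searched was GAAA, any 2 bases and GAAA again, on either strand (TTTC, any 2 bases and TTTC when it lies on the other one), and overlapping matches were merged. Of 41 members with a window, 3 held it (Trim21, Trim26 and Trim34). All of these were among the 6 interferon-inducible members matched, and 0 of the 35 other members matched held it. Among all 33469 promoters of the table, 1312 held it, or 3.92%. Capitals mark the matched run. It spans positions 233 to 248 in Trim21, 53 to 68 in Trim26 and 261 to 276 in Trim34, the last lying just past the start. The window of Trim25, the interferon-inducible member with the log2 fold change farthest from 0, held no match and is shown for comparison. The Trim21 window is chr1:166399322-166399621 on the minus strand, that of Trim26 chr20:1736262-1736561 on the minus strand, that of Trim34 chr1:168118793-168119092 on the plus strand and that of Trim25 chr10:74309774-74310073 on the plus strand.
Trim21: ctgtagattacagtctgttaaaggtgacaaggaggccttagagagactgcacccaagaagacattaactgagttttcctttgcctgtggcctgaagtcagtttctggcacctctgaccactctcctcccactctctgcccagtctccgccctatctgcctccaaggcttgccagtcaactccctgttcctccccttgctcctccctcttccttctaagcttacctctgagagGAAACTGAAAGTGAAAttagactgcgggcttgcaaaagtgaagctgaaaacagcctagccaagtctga
Trim26: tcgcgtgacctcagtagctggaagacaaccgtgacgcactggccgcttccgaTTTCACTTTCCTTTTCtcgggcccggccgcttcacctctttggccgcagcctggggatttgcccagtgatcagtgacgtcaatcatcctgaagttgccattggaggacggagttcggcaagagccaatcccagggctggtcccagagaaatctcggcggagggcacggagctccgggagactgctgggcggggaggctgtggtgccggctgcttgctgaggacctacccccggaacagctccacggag
Trim34: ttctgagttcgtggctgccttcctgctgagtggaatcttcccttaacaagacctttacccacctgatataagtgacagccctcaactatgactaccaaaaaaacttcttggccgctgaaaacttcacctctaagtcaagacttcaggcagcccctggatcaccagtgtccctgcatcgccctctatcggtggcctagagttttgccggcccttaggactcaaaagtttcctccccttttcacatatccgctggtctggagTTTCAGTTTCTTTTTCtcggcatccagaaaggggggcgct
Trim25: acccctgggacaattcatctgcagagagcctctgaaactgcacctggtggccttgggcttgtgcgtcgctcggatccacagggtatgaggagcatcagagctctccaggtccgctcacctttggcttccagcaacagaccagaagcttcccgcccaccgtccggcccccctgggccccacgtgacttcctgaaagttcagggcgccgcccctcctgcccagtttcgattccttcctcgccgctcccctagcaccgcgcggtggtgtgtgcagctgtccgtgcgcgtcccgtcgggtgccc
In each of the 3 matched windows the run held 2 overlapping copies of the motif. A match describes the letters only. The 3 genes with it differed in their measured values, and Trim26, which holds it, differed least between the groups.

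Across the family, the data showed a set of interferon-inducible and a few other transcripts at lower levels in the SAH + 6-gingerol rats, 1 transcript more than 2-fold higher (Trim54), and little difference in the abundant members. Of the 51 members, 45 passed the expression filter and were tested with edgeR. The other 6 (Trim6, Trim10, Trim30c, Trim50, Trim58 and Trim80) were at or below 0.409 CPM in every rat. No member passed an adjusted p of 0.05, where 3 of 17096 genes did (0.0175%, of which 0.00585% higher and 0.0117% lower), and the smallest adjusted p of a member was 0.338 (edgeR). At an unadjusted p under 0.05 there were 9 of 45 members, against 13.9% of all genes. Of these, 2 were higher in the SAH + 6-gingerol rats (Trim54 and Trim32, against 5.22% of genes) and 7 were lower (Trim47, Trim25, Trim55, Trim43a, Trim21, Trim65 and Trim5, against 8.71%). DESeq2 called 3 members at an adjusted p under 0.05, all lower (Trim47, Trim25 and Trim55), where it called 663 of 17903 genes (3.7%). limma-voom called 0 members, where it called 4 of 17096 genes. The limma fits on log2 FPKM also called 0 members, where they called 4 or 5 of 15354 genes, or 3 of 22396 without a filter. In edgeR without SAH + PBS replicate 2, 1 member was called (Trim54), where 91 of 17362 genes were (0.524%).

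The study's methods give limits that join a p under 0.05 to a difference beyond 2-fold. They also name DESeq2 and an adjusted p level, which was not applied here. With these limits on the unadjusted edgeR p, 1 of 45 members was higher (Trim54, against 0.731% of genes, and 0 higher whichever treated rat was left out). In the same fit 4 were lower (Trim47, Trim43a, Trim25 and Trim55, against 4.69%). With DESeq2, 7 members were past them, 1 higher and 6 lower, and the share of all genes was not computed. Treated and PBS rats were fully apart in 18 of 45 members, against 27.2% of all genes, 8 of them higher (13.8% of genes) and 10 lower (13.4%). The median log2 fold change of SAH + 6-gingerol over SAH + PBS was -0.09 over the 45 members and -0.03 over all genes, with 26 members negative against 53.1% of genes. SAH + PBS replicate 2 lay outside the range of the other 5 rats in 33 of 45 members, against 71.6% of genes, with 17 above (36.1%) and 16 below (35.5%). The standard deviation on the log2 scale was larger among SAH + PBS rats than among SAH + 6-gingerol rats in 39 of 45 members (86.7%), against 77.8% of all genes.

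**Figure D1:**
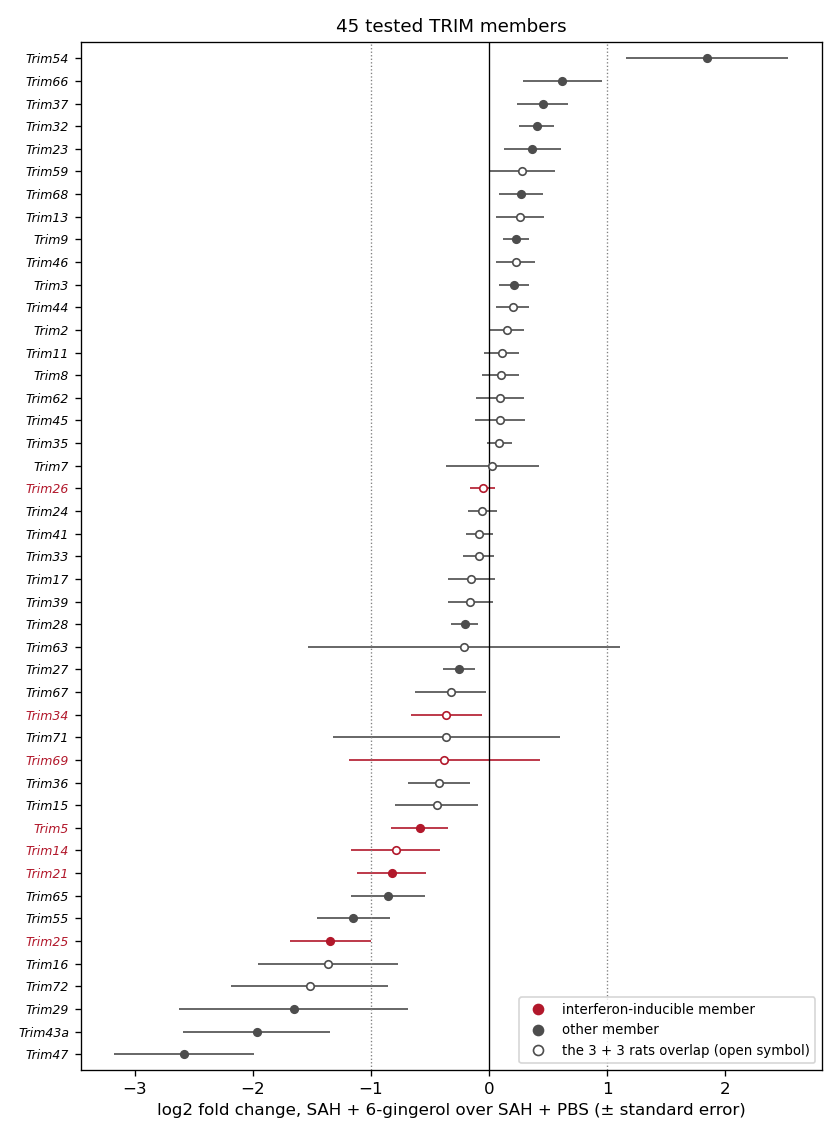
Log2 fold change of SAH + 6-gingerol over SAH + PBS (x axis) with its standard error for the 45 tested TRIM members (rows), interferon-inducible members in red and others in grey. Filled symbols mark the 18 members whose 3 rats per group did not overlap, dotted lines mark 2-fold, and all 7 red symbols lie left of 0 while Trim54 lies farthest right at 1.85 and Trim47 farthest left at -2.58.

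The interferon-inducible members had lower mean levels in the SAH + 6-gingerol rats. Of 7 tested, 7 were negative on the log2 scale (53.1% of genes), and their median was -0.59 against -0.03 over all genes. An unadjusted p under 0.05 in edgeR was found in 3, all lower (Trim25, Trim21 and Trim5), against 13.9% of all genes, 8.71% lower. These same 3 did not overlap between the groups, against 13.4% of genes that were apart and lower. Summed over the 8 members, levels were 59.5, 57.5 and 53.1 CPM with 6-gingerol, against 69.7, 101.6 and 71.4 CPM with PBS. The summed levels of the 2 groups were thus apart, with SAH + PBS replicate 2 highest, and that rat was above the other 5 in 6 of the 7 tested members (36.1% of genes). Without it, the median over the same 7 members was -0.34 and 6 stayed negative. Microglial markers (5 of 5 in the table) summed to 198, 203 and 192 CPM with 6-gingerol, against 217, 195 and 207 CPM with PBS. This sum joined markers of opposite direction. Aif1 and Csf1r were lower with 6-gingerol and P2ry12 was higher, each with groups apart (log2 fold changes -0.39, -0.17 and 0.91). Cx3cr1 and Tmem119 had overlapping groups (-0.10 and 0.22). Macrophage markers (3 of 4) summed to 76.8, 66.6 and 67.1 CPM with 6-gingerol, against 62.7, 279 and 101.1 CPM with PBS, and were thus highest in the same rat. Their part in the interferon-inducible values was not tested. In bulk tissue, fewer cells of a type and less RNA per cell cannot be told apart.

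Trim25, the E3 ligase known for activating RIG-I, lies on chromosome 10 (76343847 to 76362145, Rnor_6.0, plus strand). Its levels were 6.96, 7.42 and 5.63 CPM with 6-gingerol, against 12.5, 26.3 and 12 CPM with PBS. Every SAH + 6-gingerol rat was below every SAH + PBS rat, and the highest value was that of SAH + PBS replicate 2. The means were 6.67 ± 0.93 and 16.9 ± 8.09 CPM (SD, n = 3 each), a 2.54-fold lower level. The log2 fold change was -1.34 (SE 0.34, edgeR adjusted p = 0.340, DESeq2 adjusted p = 0.0108). Without SAH + PBS replicate 2 it was -0.88, with an edgeR adjusted p of 0.103 and a 1.84-fold lower mean.

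Trim21, a cytosolic receptor for antibody-coated virus, had 7.92, 7.5 and 5.47 CPM with 6-gingerol, against 10.9, 17.1 and 9.06 CPM with PBS. The groups did not overlap, and SAH + PBS replicate 2 was again the highest. Its log2 fold change was -0.83 (SE 0.29, edgeR adjusted p = 0.347) and -0.52 without SAH + PBS replicate 2. Trim5, whose primate relatives restrict retroviruses, had 12.2, 10.3 and 8.52 CPM with 6-gingerol, against 13.4, 20.4 and 12.8 CPM with PBS. Here too the groups did not overlap, by a narrow margin. Its log2 fold change was -0.59 (SE 0.24, edgeR adjusted p = 0.358), or -0.34 without SAH + PBS replicate 2. Trim30c lies inside Trim5 on the same strand over 21618 bases, so their reads may be shared, but it held at most 0.409 CPM in any rat.

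The remaining interferon-inducible members overlapped between the groups. Trim14, an adaptor of antiviral signaling at mitochondria, had 0.572, 0.745 and 0.836 CPM with 6-gingerol, against 0.824, 1.5 and 1.41 CPM with PBS (log2 fold change -0.79, SE 0.38, edgeR adjusted p = 0.381), or -0.64 without SAH + PBS replicate 2. Of the PBS rats, replicate 1 alone lay within the range of the treated rats. Trim34, a relative and neighbour of Trim5, had 6.21, 5.39 and 5.27 CPM with 6-gingerol, against 4.40, 9.26 and 8.03 CPM with PBS (log2 fold change -0.36, or -0.14 without SAH + PBS replicate 2). SAH + PBS replicate 1 was thus the lowest of all 6 rats and its group mates the highest. Trim26, an E3 ligase of the major histocompatibility region, had 24.9, 25.4 and 26.7 CPM with 6-gingerol, against 27.2, 25.3 and 27.5 CPM with PBS (log2 fold change -0.05, SE 0.11, or -0.09 without SAH + PBS replicate 2). It was the most abundant of the list by CPM and also the one whose groups lay closest.

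Trim69, which restricts some RNA viruses in human cells, had 0.477, 0.575 and 0.702 CPM with 6-gingerol, against 0.5, 1.63 and 0.152 CPM with PBS. Its log2 fold change of -0.38 rested on SAH + PBS replicate 2 and was 0.84 without it. Trim30c, a member of the Trim30 genes known from mice, had 0.191, 0.124 and 0 CPM with 6-gingerol, against 0.0588, 0.0581 and 0.409 CPM with PBS and was not tested.

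**Figure D2:**
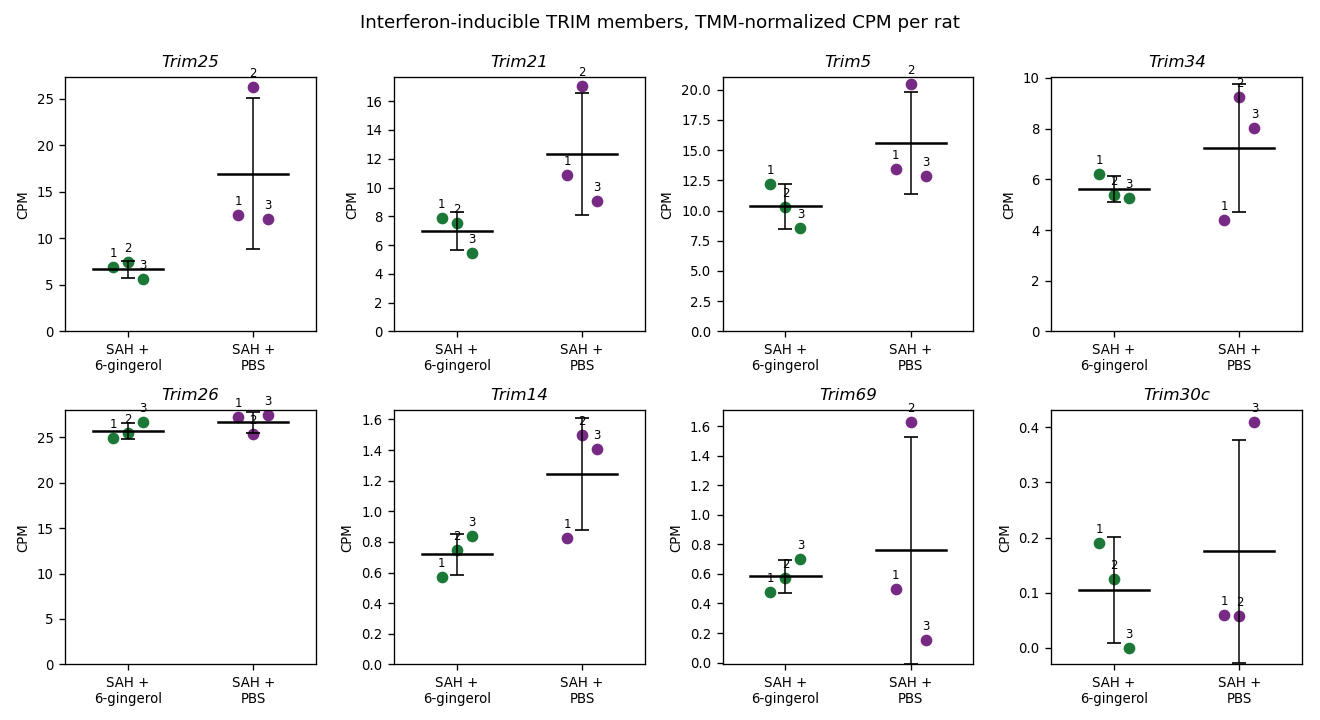
TMM-normalized CPM (y axis, a scale per panel) of the 8 interferon-inducible members in each rat, with SAH + 6-gingerol (green) left of SAH + PBS (purple), replicate numbers beside the points, and bars for mean ± SD (n = 3 each). Trim25, Trim21 and Trim5 show groups that do not overlap, and replicate 2 is the highest SAH + PBS point in 6 of the 7 tested members.

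The genes around Trim25 in the same pathway were read from a list of RIG-I signaling (sensors, adaptors, kinases, transcription factors and the ISG15 system). All 19 tested members were negative on the log2 scale (53.1% of genes), their median was -0.90 (-0.03 over all genes), and 11 had an unadjusted p under 0.05, all lower (8.71% of genes). None passed an adjusted p of 0.05 in edgeR, where the smallest was 0.327. DESeq2 called 3 of 19 (3.7% of genes). SAH + PBS replicate 2 was above the other 5 rats in 12 of 19 (36.1% of genes), and without it the median was -0.58 with 19 still negative. Isg15, an interferon-induced ubiquitin-like protein, had the smallest p, with 5.53, 4.35 and 2.99 CPM with 6-gingerol, against 17.1, 16.6 and 11 CPM with PBS (log2 fold change -1.79, SE 0.30). The groups were apart with no single rat standing out. Stat2 and Irf9, transcription factors of the interferon response, had log2 fold changes of -0.49 and -0.97. Herc6, the E3 ligase for Isg15 in mice, had -0.70, and its 3 SAH + 6-gingerol rats (19.2, 16.1 and 16.8 CPM) were below the 3 SAH + PBS rats (35.4, 23.1 and 26.0 CPM).

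Among the 43 other members, 38 were tested and their log2 fold changes were balanced, 19 negative and 19 positive (46.9% of genes were positive), around a median of -0.01. In 18 of 38 the log2 fold change lay within 0.25 of 0 (47.4%, against 46.1% of all genes), and 6 had an unadjusted p under 0.05 (13.9% of all genes). Trim47 and Trim54, at the ends of the range, were among the genes of the study's heatmap, which was drawn from these same samples, so their values are not independent evidence of a direction.

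Trim47, an E3 ligase with a PRY-SPRY domain whose human gene lies in a locus linked to white matter lesions, had the largest log2 fold change of the family. It lies on chromosome 10 (104654717 to 104659188, Rnor_6.0, minus strand). Its levels were 8.23, 8.51 and 7.91 CPM with 6-gingerol, against 40.9, 90.6 and 15.9 CPM with PBS. The treated rats lay close together while the SAH + PBS rats spread widely, and the lowest of them was still above all treated rats. The means were 8.22 ± 0.30 and 49.1 ± 38.0 CPM (SD, n = 3 each), a 5.98-fold lower level. The log2 fold change was -2.58 (SE 0.59, edgeR adjusted p = 0.338), and DESeq2 gave an adjusted p of 0.000172. Without SAH + PBS replicate 2 the log2 fold change was -1.79 with an edgeR adjusted p of 0.114, a 3.46-fold lower mean.

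Trim65, a neighbour 15744 bases from Trim47 on the same strand, is known as an E3 ligase for the RNA sensor Ifih1 (MDA5) and shares the human locus. It had 8.82, 9.02 and 9.79 CPM with 6-gingerol, against 15.1, 24.5 and 10.4 CPM with PBS. The order of the SAH + PBS rats was the same as for Trim47, and the groups did not overlap. Its log2 fold change was -0.85 (SE 0.31, edgeR adjusted p = 0.349) and -0.47 without SAH + PBS replicate 2. Within 50000 bases of Trim47, the log2 fold change of Unc13d, a vesicle priming factor of cytotoxic cells, was -1.27, while those of Unk, Wbp2, Mrpl38 and Fbf1 lay between -0.06 and 0.14. Endothelial markers summed to 190, 173 and 199 CPM with 6-gingerol, against 217, 471 and 234 CPM with PBS, over 5 of 6 listed genes found in the table, with Cldn5 at 13.4 CPM in SAH + PBS replicate 2 and at 0 in the other 5 rats. Their part in the Trim47 values was not tested.

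The muscle RING finger (MuRF) members went in different directions. Trim54, a microtubule-associated protein of muscle, is on chromosome 6 (26603369 to 26624092, Rnor_6.0, minus strand). It had 32.4, 34.8 and 31.5 CPM with 6-gingerol, against 12.6, 1.64 and 13.2 CPM with PBS. All treated rats were above all SAH + PBS rats, and SAH + PBS replicate 2 was far below its group mates, at 12.7% of their mean. The means were 32.9 ± 1.69 and 9.15 ± 6.51 CPM (SD, n = 3 each), 3.6-fold higher. The log2 fold change was 1.85 (SE 0.69, edgeR adjusted p = 0.349, DESeq2 adjusted p = 0.0539). Without SAH + PBS replicate 2 the log2 fold change was smaller, 1.35, a 2.55-fold higher mean. It then passed the test with an edgeR adjusted p of 0.0116, in a fit whose remaining SAH + PBS rats had the high choroid plexus markers.

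Trim55, a MuRF protein of the sarcomere, had 1.22, 1.41 and 1.3 CPM with 6-gingerol, against 2.80, 3.88 and 2.08 CPM with PBS. The groups did not overlap, and the log2 fold change was -1.15 (SE 0.31, edgeR adjusted p = 0.343, DESeq2 adjusted p = 0.0388), or -0.89 without SAH + PBS replicate 2. Trim63, which tags muscle protein for breakdown, had 0.445, 0 and 0.886 CPM with 6-gingerol, against 0.485, 0.915 and 0.136 CPM with PBS, a level too low for a direction (log2 fold change -0.21, SE 1.32, or 0.51 without SAH + PBS replicate 2). Skeletal muscle markers summed to 34.0, 28.2 and 29.8 CPM with 6-gingerol, against 37.0, 71.2 and 34.2 CPM with PBS over 9 genes of 12 found in the table. Acta1 (12.5 to 17.2 CPM) and the gene model named Myh4 (4.85 to 8.94 CPM) had counts in every rat. That model carries several gene identifiers, so its counts may not be those of Myh4 alone. Des ran from 4.83 to 47.4 CPM, and the other 6, Ckm and Mb among them, were at or below 0.839 CPM. Neuronal markers, which summed to 5711, 5689 and 5936 CPM with 6-gingerol, against 3806, 2227 and 4920 CPM with PBS, had the same lowest rat as Trim54. Their part in its values was not tested. Of its neighbours, Slc30a3, a zinc transporter of synaptic vesicles, had a log2 fold change of 1.26 with groups apart. Ucn, a stress peptide gene 395 bases away on the opposite strand, had 2.15 with overlapping groups. The other tested neighbours within 50000 bases, Gtf3c2, Mpv17 and Cad, had -0.05, -0.11 and -0.425, all with overlapping groups.

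Trim43a and Trim32 were the remaining members with an unadjusted p under 0.05. Trim43a, whose human relative is expressed in early embryos, was near the floor of detection, with 0.0954, 0.171 and 0.234 CPM with 6-gingerol, against 0.927, 0.740 and 0.303 CPM with PBS (log2 fold change -1.97, SE 0.62, edgeR adjusted p = 0.347). The groups were apart by a narrow margin, and the value was -1.87 without SAH + PBS replicate 2. Trim32, an E3 ligase with NHL repeats that acts in muscle and neural progenitors, had 129, 125 and 134 CPM with 6-gingerol, against 104, 78.9 and 111 CPM with PBS (log2 fold change 0.40, SE 0.14, edgeR adjusted p = 0.348). Its 3 treated rats lay close together and above all 3 SAH + PBS rats, and the value was 0.27 without SAH + PBS replicate 2. Trim32 lies over its whole length within Astn2 on the opposite strand, which had 39.1, 38.2 and 39.9 CPM with 6-gingerol, against 28.8, 21.7 and 33.5 CPM with PBS. The strand setting of the counting is not given in the sources used here, so reads of the pair cannot be told apart.

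**Figure D3:**
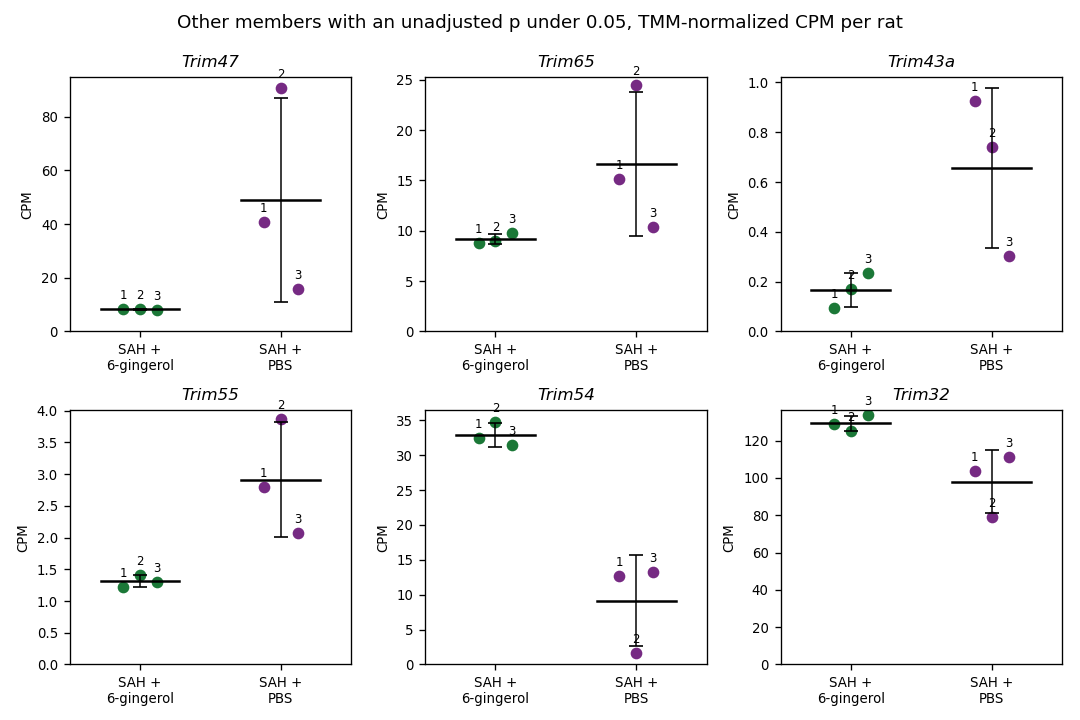
TMM-normalized CPM (y axis, a scale per panel) of the 6 other members with an unadjusted p under 0.05 in each rat, SAH + 6-gingerol (green) left of SAH + PBS (purple), with replicate numbers and mean ± SD (n = 3 each). Treated rats lie close together in every panel but that of Trim43a, and SAH + PBS replicate 2 is the extreme point for Trim47, Trim65, Trim55, Trim54 and Trim32.

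By domain class, the NHL members held Trim2 and Trim3, both neuronal ligases, and Trim32. Of the 4 tested, 3 were positive (46.9% of all genes), with a median of 0.18. Trim3 had groups apart (110, 118 and 124 CPM with 6-gingerol, against 109, 85.4 and 109.5 CPM with PBS), with the nearest rats almost level. In the deposited FPKM, which are not TMM-normalized, its groups overlapped (36.5, 39.4 and 41.1 with 6-gingerol, against 39.2, 31.8 and 38.5 with PBS). Its log2 fold change of 0.21 was 0.10 without SAH + PBS replicate 2. Among the 4 microtubule-binding members with a COS box, Trim9, a neuronal ligase in axon branching, had the smallest p, with 219, 222 and 233 CPM with 6-gingerol, against 198, 172 and 206 CPM with PBS (log2 fold change 0.23, SE 0.11, edgeR adjusted p = 0.378). Its groups were apart by a small margin, and the value was 0.16 without SAH + PBS replicate 2. The rest of the class, Trim36, Trim46 and Trim67, overlapped, with log2 fold changes from -0.42 to 0.23, or -0.33 to 0.09 without that rat.

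The chromatin members with a PHD finger and bromodomain differed little, apart from Trim66. Trim28, the corepressor of zinc finger proteins that silence transposons, had 149, 150 and 141 CPM with 6-gingerol, against 160, 192 and 155 CPM with PBS (log2 fold change -0.21, SE 0.12, or -0.10 without SAH + PBS replicate 2). Trim66, the smallest p of the class, had 14.4, 13.1 and 15.8 CPM with 6-gingerol, against 12.2, 5.01 and 11 CPM with PBS (log2 fold change 0.62, SE 0.33, edgeR adjusted p = 0.404), and the value was 0.32 without SAH + PBS replicate 2. Both had groups apart, while Trim24 and Trim33 had log2 fold changes of -0.06 and -0.09. Trim37, a ligase of centrosomes and chromatin, had 188, 191 and 202 CPM with 6-gingerol, against 152, 96.8 and 174 CPM with PBS (log2 fold change 0.46, SE 0.22, edgeR adjusted p = 0.380), and the value was 0.25 without SAH + PBS replicate 2. It overlaps Ppm1e on the opposite strand over 20224 bases. Its class mates Trim23, which carries a GTPase domain, and Trim45 had 0.37 and 0.09, but 0.12 and -0.06 when SAH + PBS replicate 2 was left out.

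A further class joined members with no RING to members with no C-terminal domain. In it Trim16, which takes part in the removal of damaged endomembranes, had the smallest p. Its levels were 3.78, 3.01 and 4.25 CPM with 6-gingerol, against 7.5, 17.8 and 3.12 CPM with PBS (log2 fold change -1.36, SE 0.60, edgeR adjusted p = 0.366). The groups overlapped, and without SAH + PBS replicate 2 the value was -0.53. In the same class, Trim29 had -1.65 at 0.242 CPM or less in every rat, and Trim8 and Trim44 had 0.10 and 0.20, but -0.05 and 0.07 when SAH + PBS replicate 2 was left out. The pair anchored in the endoplasmic reticulum membrane, Trim13 and Trim59, had 0.26 and 0.28 with overlapping groups, and 0.16 and 0.24 without SAH + PBS replicate 2. Trim13 had 4.91, 4.83 and 5.06 CPM with 6-gingerol, against 3.96, 3.54 and 4.86 CPM with PBS. Of 14 tested members placed in the PRY-SPRY class, outside the interferon list, 9 were negative (53.1% of all genes) with a median of -0.15. Groups were apart in 5 of the 14 (27.2% of all genes). Of these, 4 were lower (Trim47, Trim43a, Trim65 and Trim27, where 13.4% of all genes were apart and lower). The largest value of the class among members with overlapping groups was that of Trim72, a membrane repair protein of muscle, at -1.52 and -0.88 without SAH + PBS replicate 2.

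**Figure D4:**
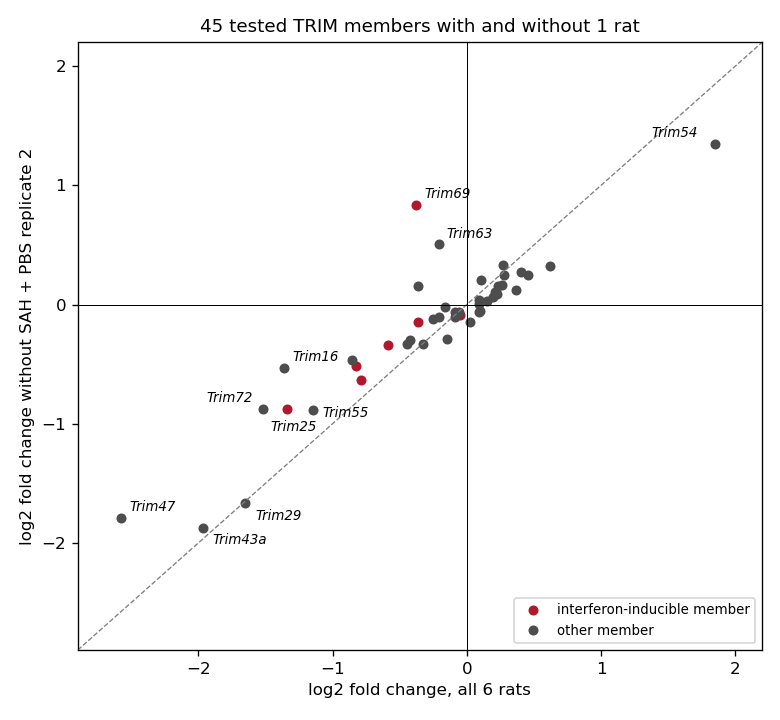
Log2 fold change of SAH + 6-gingerol over SAH + PBS from all 6 rats (x axis) against that without SAH + PBS replicate 2 (y axis) for the 45 tested members, with interferon-inducible members in red. The dashed line marks equal values. Trim47 (-2.58 and -1.79), Trim25 (-1.34 and -0.88) and Trim54 (1.85 and 1.35) lie nearer to 0 on the y axis, and 6 members lie on opposite sides of 0, Trim69 (-0.38 and 0.84), Trim63, Trim71, Trim8, Trim45 and Trim7.

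Levels were compared between genes on the deposited FPKM, which divide by gene length. The most abundant members by mean FPKM were Trim35 (68.5), Trim2 (60.3), Trim9 (56.3), Trim28 (53.3) and Trim44 (51.9), which together made 44.5% of the summed FPKM of the family, while the 8 interferon-inducible members made 3.01%. A mean over 10 FPKM was found in 16 members, 1 to 10 in 20, 0.1 to 1 in 8 and under 0.1 in 7. The 5 leading members summed to 284, 296 and 284 FPKM with 6-gingerol, against 305, 279 and 294 FPKM with PBS, so the groups overlapped. These FPKM are scaled to the total count without TMM. In TMM-normalized CPM the sums were 1088, 1141 and 1115 with 6-gingerol, against 1089, 948 and 1077 with PBS. They overlapped narrowly, with the higher mean in the treated rats, so the lean depends on the unit. Trim35, a PRY-SPRY ligase, had 258, 269 and 252 CPM with 6-gingerol, against 268, 228 and 238 CPM with PBS, and its log2 fold change of 0.09 turned negative with library totals as the scale and in the limma fits on FPKM. Trim2, which acts on neurofilament light chain, had 385, 420 and 414 CPM with 6-gingerol, against 390, 301 and 404 CPM with PBS. Trim44 had 77.8, 79.8 and 74.8 CPM with 6-gingerol, against 73.1, 54.6 and 74.9 CPM with PBS. In each of these 3 the groups overlapped, with SAH + PBS replicate 2 the lowest rat. Without that rat the log2 fold change was 0.04 for Trim35 and 0.03 for Trim2, against 0.15 for Trim2 from all 6 rats.

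**Figure D5:**
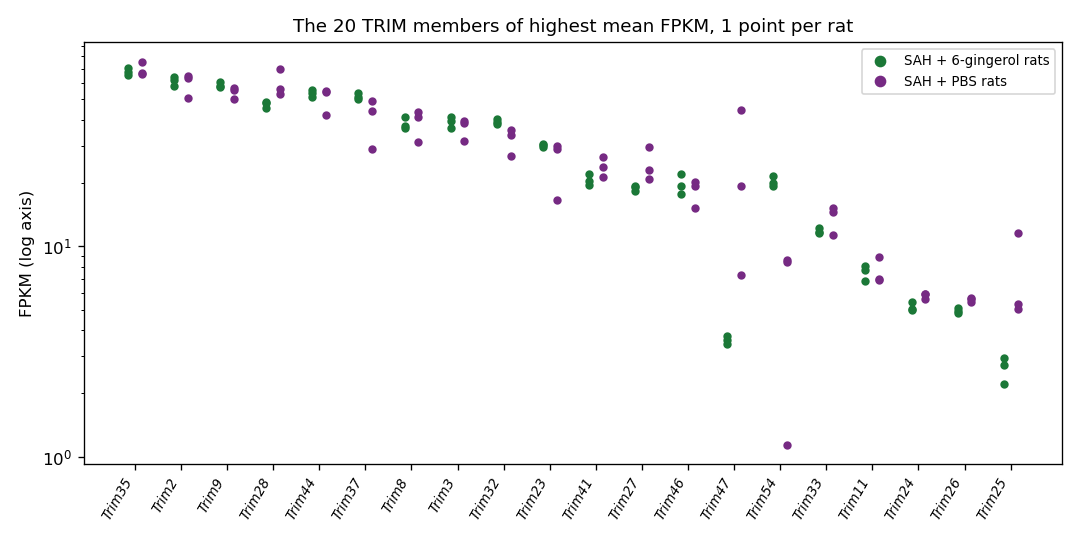
FPKM (y axis, log scale) in each rat for the 20 TRIM members of highest mean FPKM (x axis, ordered by that mean), SAH + 6-gingerol in green left of SAH + PBS in purple. Groups of the leading members lie close together, while Trim47, Trim54 and Trim25 have the largest log2 fold changes in size of these 20.

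Genes of the same protein class that carry other symbols were read apart (Mid1, Mid2, Pml, Mefv, Rnf207, Cmya5 and Bspry). Of 7 tested, 5 were negative (53.1% of all genes), 3 had an unadjusted p under 0.05 (13.9%) and 4 had groups apart (27.2%). Pml, the scaffold of nuclear bodies and itself interferon-inducible, had 11.57, 10.02 and 10.03 CPM with 6-gingerol, against 15.7, 17.4 and 14.1 CPM with PBS (log2 fold change -0.58, SE 0.15, edgeR adjusted p = 0.343, DESeq2 adjusted p = 0.042). Mefv, the pyrin of innate immune cells, had a log2 fold change of -1.36 at 1.45 CPM or less in every rat. Rnf207, known from heart muscle, had 4.08, 3.96 and 5.98 CPM with 6-gingerol, against 3.12, 1.5 and 2.80 CPM with PBS (log2 fold change 0.92). The groups of these 3 genes did not overlap. Cmya5, a muscle protein, was next by p, with a log2 fold change of 0.50.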

How the data were processed

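The authors deposited raw counts per gene and FPKM for the same genes, 1 column per rat. The processing notes of the submitters list HISAT2 2.1.0, StringTie 1.3.3b, limma 3.32.10 and the build Rnor_6.0, without saying what each did, and the paper's methods list STAR and DESeq2. The read counter, its strand setting and the annotation are not stated in what was read here. The deposited FPKM equal the counts over 1 length per gene and the total, within 0.0164%. In the deposited counts, 35.6% to 38.1% of values from 1 to 40 were multiples of 4, so 1 read pair may be worth more than 1 count. The cause was not tested.

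Counts were tested with edgeR 4.0.16 in R 4.3.3 (filterByExpr, minimum count 10, minimum total 15, TMM, glmQLFit, glmQLFTest, no block) with Benjamini-Hochberg adjustment over 17096 genes. CPM are TMM-normalized. The SE is the size of the log2 fold change over the square root of F. No pair of libraries agreed within counting noise. Alternatives were DESeq2 1.42.0, limma-voom (limma 3.58.1), RLE factors, library totals, no filter, a floor of 1 CPM, log2(FPKM + 1) and log2(FPKM + 0.1) in limma (FPKM of at least 0.5 in 3 libraries), log2(FPKM + 1) unfiltered, omission of each rat, the replicate number as a block, and narrower and wider interferon lists. Dividing counts by 4 was added after seeing the data. The test was checked on simulated data.

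Members and lists were chosen with earlier results of these data known. Named members are Trim47, Trim54, the interferon list, those with an unadjusted p under 0.05, the smallest p of each domain class, the 5 of highest mean FPKM and the 4 smallest p of each pathway list. Neighbours, overlapping genes and further members were chosen for naming with their values in view. Promoters are from RefSeq (GRCr8, matched by gene identifier for 41 of 51 members) and gene positions from the deposited tables (Rnor_6.0). The sources tie each library to 1 rat, so p-values measure the spread between rats.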

Additional observations from a re-analysis of the deposited data

How the results depend on the processing

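No named member passed an adjusted p of 0.05 in the reported fit, so keeping the side of the threshold meant staying short of it. All alternatives were refits of these same rats. Over 22 named members and 363 alternative values, 352 kept their direction and side of the threshold. Another 4 passed an adjusted p of 0.05 that the reported fit did not reach, and 7 turned sign. The 4 were Trim47, Trim25 and Trim55 in DESeq2 and Trim54 without SAH + PBS replicate 2. Trim35 was -0.031 with library totals and -0.028 in the 3 limma fits on FPKM. Trim69 was 0.18 in limma-voom and -0.87 to 0.84 with 1 rat left out (0.84 without SAH + PBS replicate 2). Library totals moved the median of all genes to -0.15, and limma on log2(FPKM + 1) and log2(FPKM + 0.1) to -0.10 and -0.12. The number of all genes called, 3 in edgeR, was 663 in DESeq2, 0 with 1 CPM in every rat, 5 in limma on log2(FPKM + 0.1), and 0 to 91 with 1 rat left out (0 without SAH + 6-gingerol replicate 2 or 3, 91 without SAH + PBS replicate 2, 15 without SAH + PBS replicate 3). TRIM members called were 3 in DESeq2 and 0 to 1 with 1 rat left out. The 5 members past the study's limits in edgeR became 7 in DESeq2 (1 higher and 6 lower) and 3 in limma on log2(FPKM + 1) with or without a filter. With 1 rat left out, 3 to 9 were past these limits, 9 without SAH + PBS replicate 3, 4 without SAH + 6-gingerol replicate 3, and 3 without SAH + 6-gingerol replicate 1 or 2 or SAH + PBS replicate 2. Trim54 was not past them whichever SAH + 6-gingerol rat was left out (0 higher). The interferon-inducible median of -0.59 was -0.25 in limma on log2(FPKM + 1) without a filter, -0.81 over the narrower list and -0.48 over the wider one. The median of the other members, -0.01, was -0.13 with library totals, 0.074 with 1 CPM in every rat, 0.080 with counts divided by 4, and -0.095 to 0.028 with 1 rat left out. These medians lie near 0 and their causes were not tested.

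Over all genes, same-numbered rats did not deviate together (r of -0.04, 0.01 and 0.01). The sample titles give no link beyond the number. A correlation over all genes cannot exclude a shared factor that acts on some of them. With the replicate number as a block, 0 of all genes and 0 TRIM members were called and Trim69 was 0.13. SAH + PBS replicate 2 lay outside the other 5 rats in 33 of 45 members, and low members such as Trim63, Trim69 and Trim43a rest on few counts.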
